A study of Mus musculus with 2 samples.

Results

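Monocytes were identified in 2 droplet single-cell RNA libraries of sorted tumor cells, and their RNA was compared between control mice and mice in which Dnmt1 was deleted in endothelial cells (ECs). A cell counted as a monocyte when it had at least 500 detected genes and at most 10% mitochondrial UMIs (unique molecular identifiers, one per captured transcript), at least 1 UMI of Ptprc (CD45), at least 1 UMI of Csf1r, and UMIs of at least 3 of the 6 genes Ly6c2, Ccr2, F13a1, Plac8, Ace and Treml4. The cell also had to hold at most 2 UMIs of C1qa, C1qb and C1qc together and none of Cd3e, Cd79a or Flt3. Members were thus chosen by the measured UMIs of these genes, whose levels are given below as a description only. The rule found 494 monocytes among 16123 filtered cells, which came from 18823 barcodes: 117 in the control library and 377 in the Dnmt1iECKO library.

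Each library was made from the pooled YUMMER1.7 tumors of 3 female mice aged 8 to 10 weeks, and live CD31+CD45- cells were sorted for it. YUMMER1.7 is a mouse melanoma line that carries many mutations and draws a strong T cell response. The sample labels give the control mice as C57BL/6, while the study's methods use VEcad-CreERT2;ZsGreen mice on that background as controls. The labels give the Dnmt1iECKO mice as Cdh5CreERT2;Dnmt1fl/fl;ZsGreenlsl/lsl. In these animals tamoxifen activates a Cre recombinase driven by the promoter of Cdh5 (VE-cadherin), so Dnmt1 is removed from ECs of every organ and not from the tumor vessels alone, and no blood cell gene is targeted by design. The labels describe subcutaneous tumors and the study describes tumors in the lung after tail vein injection. Because the sort kept cells without surface CD45, the monocytes were cells that passed a gate set to remove them, and their number in a library depends on that gate. With 1 library per group there were no replicates and no test between groups was made. The exact 95% intervals given below cover counting error only.

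Monocytes are short-lived phagocytes that leave the bone marrow and circulate in the blood. Classical monocytes, marked in the mouse by high Ly6C and by the chemokine receptor CCR2, enter inflamed tissue and tumors and can become macrophages or antigen-presenting cells there. Nonclassical monocytes derive from classical ones, depend on the nuclear receptor NR4A1, and patrol the inner face of small vessels, which are dense in the lung. Interferon gamma, made by activated T and NK cells, acts on monocytes and raises antigen presentation by MHC class II molecules through the coactivator CIITA.

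The promoters of 2 class II genes are shown because these genes differed between the libraries in one set of monocytes described below. The sequences are the 120 bases before the annotated start of H2-Aa at chr17:34287824-34287943 on the minus strand and of H2-Eb1 at chr17:34305747-34305866 on the plus strand, from RefSeq on GRCm38.p6. Capitals mark CTGATTGG, the inverted CCAAT element of the class II promoter known as the Y box, which was searched on both strands together with its reverse complement CCAATCAG.
H2-Aa: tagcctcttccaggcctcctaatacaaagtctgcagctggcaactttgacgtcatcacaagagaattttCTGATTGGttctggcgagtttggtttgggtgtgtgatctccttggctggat
H2-Eb1: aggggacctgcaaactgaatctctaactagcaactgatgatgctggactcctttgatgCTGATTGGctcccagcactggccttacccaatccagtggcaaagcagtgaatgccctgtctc
The element lay 51 to 44 bases before the start of H2-Aa and 62 to 55 bases before that of H2-Eb1. It occurred within 250 bases before the start in 1258 of 32851 promoters (3.83%). H2-DMa, with 2 promoters listed, H2-DMb1 and H2-DMb2 held no copy of these letters in that window. H2-Ab1, Cd74 and Ciita were not matched. A match is a description of the sequence only.

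The targeted gene was examined first. In ECs, taken as cells without Ptprc and with at least 3 Cdh5 UMIs, Dnmt1, the maintenance DNA methyltransferase, stood at 50.4 CPM (UMIs of the gene per 1000000 UMIs) in 4714 control cells and at 29.0 CPM in 1919 Dnmt1iECKO cells. The log2 ratio of Dnmt1iECKO over control was −0.80 (−0.91 to −0.69). Monocytes, which the deletion does not target, held 95 Dnmt1 UMIs in the control, which is 44.0 CPM, and 225 in the Dnmt1iECKO library, which is 30.8 CPM, a log2 ratio of −0.51 (−0.87 to −0.15). One control cell held 18.9% of the control UMIs, and without the top cell of each library the ratio was −0.39 (−0.77 to 0.01). It was −0.76 without cells holding Cdh5 or Cldn5 (claudin 5), and 0.61 when each cell was thinned to 2000 UMIs before the rule, which left 28 and 127 monocytes. Dendritic cells stood at 68.5 and 48.8 CPM and neutrophils at 32.4 and 3.45 CPM (19 and 4 UMIs), while C1q-positive macrophages stood at 41.0 and 41.1 CPM and T cells at 80.1 and 125 CPM. The immune cell types thus differed in direction. Among the other DNA methylation genes Dnmt3a stood at 49.1 and 35.7 CPM, and Tet2, which is often mutated in myeloid disease, at 185 and 164 CPM.

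Depth was similar in both libraries. Monocytes held a median of 14622 UMIs in the control (range 2934 to 89870) and 16514 in the Dnmt1iECKO library (2545 to 118209). The libraries shared 29 barcodes; no barcode was a monocyte in both, and 1 monocyte had a barcode found in the other library. A doublet caller marked 8.55% of control and 7.43% of Dnmt1iECKO monocytes, against 3.20% and 3.25% of all filtered cells.

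Monocytes made up 1.46% of filtered cells in the control (117 of 8021, 1.21 to 1.75%) and 4.65% in the Dnmt1iECKO library (377 of 8102, 4.20 to 5.13%), a 3.19-fold difference with a log2 ratio of 1.67 (1.37 to 1.99). Cells with Ptprc made up 18.3% and 58.4% of filtered cells, a log2 ratio of 1.68. Of Ptprc-positive cells, monocytes therefore made up 7.98% (6.64 to 9.49%) in the control and 7.97% (7.22 to 8.78%) in the Dnmt1iECKO library, with a log2 ratio of 0.00 (−0.30 to 0.31). C1q-positive macrophages took 12.3% and 9.24% of Ptprc-positive cells, neutrophils 3.14% and 4.04%, and Flt3-positive dendritic cells 4.37% and 3.59%. The libraries thus differed in the share of immune cells, while a difference in the monocyte share of those cells was not detectable at this depth. The gate and the genotype cannot be told apart as sources of the immune share.

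**Figure D1:**
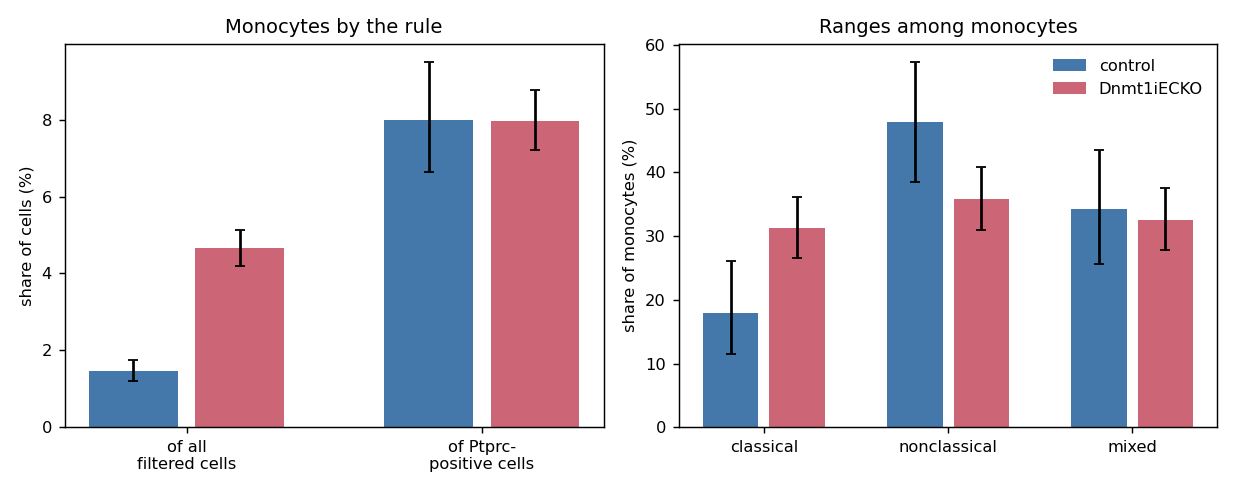
Left, share of cells (%) that were monocytes, with all filtered cells or Ptprc-positive cells as the denominator. Right, share of monocytes (%) in the classical, nonclassical and mixed range. Bars are 1 library each and error bars are exact 95% binomial intervals. Monocytes were 1.46% and 4.65% of filtered cells but 7.98% and 7.97% of Ptprc-positive cells.

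RNA of ECs was present in monocytes and differed between the libraries. A UMI of Cdh5 or of Cldn5 (claudin 5), both endothelial junction genes, was found in 43 of 117 control monocytes (36.8%, 28.0 to 46.2%) and in 61 of 377 Dnmt1iECKO monocytes (16.2%, 12.6 to 20.3%). T cells showed the same order at 17.0% and 6.85%, as did C1q-positive macrophages at 28.7% and 14.0% and neutrophils at 37.0% and 10.5%. At least 3 of 8 EC markers were found in 36 control and 43 Dnmt1iECKO monocytes, and all 8 were lower in the Dnmt1iECKO monocytes. The summed level of the 8 markers ranged from 0 to 8974 CPM per control monocyte and from 0 to 7626 CPM per Dnmt1iECKO monocyte. Leaving out monocytes with Cdh5 or Cldn5 left 74 and 316 cells, and the share of Ptprc-positive cells then became 5.05% and 6.68%, a log2 ratio of 0.40 (0.04 to 0.79). Only monocytes were filtered for this share, and the denominators stayed at 1466 and 4729 cells. Other immune cells with this RNA, also more frequent in the control, were kept there, so the ratio does not compare like with like. Values without these cells stand beside the results below, and the part played by this RNA was not tested.

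Markers of other cell types were counted in the same way. At least 3 of 9 macrophage markers were found in 28 control (23.9%) and 108 Dnmt1iECKO monocytes (28.6%), and their summed level was 1240.0 and 1332 CPM over all monocytes and reached 9169 and 9044 CPM in single cells. By range the share was 19.0% and 37.3% in the classical, 25.0% and 14.8% in the nonclassical and 25.0% and 35.8% in the mixed range. The list includes Car4, which ECs carried at 816 and 581 CPM. ECs held the whole list at 875 and 685 CPM, but at least 3 of its genes in only 0.318% and 1.09% of cells. EC RNA may thus add to these macrophage values. Folr2, of resident macrophages, was at 0 in the Dnmt1iECKO monocytes. The part of this RNA in the results was not tested. At least 3 of 9 neutrophil markers were found in 8 control and 20 Dnmt1iECKO monocytes, and the summed level reached 257115 CPM in 1 Dnmt1iECKO cell. At least 3 of 6 fibroblast markers occurred in 1 and 18 cells, and at least 3 of 6 epithelial markers in 4 and 4 cells. T and NK markers reached that number in 2 and 3 cells, B cell markers in 0 and 10, and platelet markers in 5 and 9. At least 3 of 9 dendritic cell markers were found in 13 control (11.1%) and 19 Dnmt1iECKO monocytes (5.04%), and 8 of the 9 had UMIs in each library. ECs held at least 3 of these markers in 18.2% and 21.7% of cells. Without Cdh5 or Cldn5 the monocyte shares were 6.76% and 2.85%. The part of EC RNA in these counts was not tested. Xcr1, the defining receptor of cross-presenting dendritic cells, was at 0 in the Dnmt1iECKO monocytes and Siglech, of plasmacytoid dendritic cells, was at 0 in the control ones. Of 3 genes of the macrophage list that are typical of alveolar macrophages (Marco, Siglecf and Krt79), chosen after values were seen, at least 2 were present in 5 control monocytes (4.27%, 1.40 to 9.69%) and 5 Dnmt1iECKO monocytes (1.33%, 0.432 to 3.07%), of which 4 in each library were in the nonclassical range. Leaving out every cell with a UMI of Cdh5, Cldn5, Ager, Epcam, Col3a1 or Dcn kept 66 and 270 monocytes, which are called monocytes without other lineages below.

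General monocyte genes that the rule did not use were examined next. All 17 such genes were detected in both libraries, and every monocyte held at least 3 of them. Lyz2, the lysozyme of myeloid cells, stood at 11461 and 11594 CPM, Fcer1g, the signaling chain of Fc receptors, at 1511 and 1829 CPM, and Spi1, which encodes the myeloid master factor PU.1, at 463 and 524 CPM. In ECs the same genes stood at 27.6 and 43.1, 4.99 and 11.0, and 0.470 and 0.671 CPM. Ms4a6c, a surface protein of monocytes, separated cells at the edge of the rule: among cells that met its other criteria it was at 151 CPM with 2 of the 6 markers and at 409 CPM with 3 of them in the control, and at 259 and 563 CPM in the Dnmt1iECKO library. Lyz2 did not follow, with 16438 CPM at 2 markers and 8142 CPM at 3 in the control. By the C1q limit, 3 control and 8 Dnmt1iECKO cells lay just outside with 3 to 10 UMIs, and 10 and 65 lay just inside with 1 or 2.

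The monocytes were divided into ranges by the same genes that chose them. Cells with Ly6c2 and neither Ace nor Treml4 formed the classical range, cells with Ace or Treml4 and no Ly6c2 the nonclassical range, and cells with both the mixed range. These are ranges of marker counts and not cell types. The classical range held 21 control cells (17.9%, 11.5 to 26.1%) and 118 Dnmt1iECKO cells (31.3%, 26.6 to 36.2%), the nonclassical range 56 (47.9%) and 135 (35.8%), and the mixed range 40 (34.2%) and 123 (32.6%), while 1 Dnmt1iECKO cell was in none. The log2 ratio of the classical share was 0.80 (0.12 to 1.55). Near the boundary, with 1 or 2 Ly6c2 UMIs, lay 23 control and 43 Dnmt1iECKO monocytes. Requiring 3 Ly6c2 UMIs, a limit chosen after the values were seen, gave classical shares of 12.0% and 27.6%. With Cdh5 and Cldn5 at 0 the classical shares were 24.3% and 35.8%, and the interval of their log2 ratio of 0.56 (−0.17 to 1.36) took in 0. Cdh5 or Cldn5 UMIs were present in 51.8% of control and 24.4% of Dnmt1iECKO nonclassical cells, but in 14.3% and 4.24% of classical cells. Ace was itself an EC gene here, at 687 and 658 CPM in ECs, whereas Treml4 stood at 0.0313 and 0.106 CPM there.

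Genes that the rule did not use followed the ranges. Of 16 further genes known from nonclassical monocytes, 16 were higher in the nonclassical than in the classical range in both libraries, where 45.0% of 6786 genes with 100 UMIs or more were higher in both. Of 12 further classical genes, 10 were lower in the nonclassical range in both, against 30.8% of all genes. Nr4a1, the factor that nonclassical monocytes require, stood at 273 CPM in the classical and 807 CPM in the nonclassical range of the control, and at 345 and 875 CPM in the Dnmt1iECKO library. Pou2f2, a lymphoid and monocyte factor, stood at 103 and 524 CPM in the control and at 124 and 604 CPM in the Dnmt1iECKO library. Spn, which encodes CD43, stood at 21.2 and 153 CPM and at 22.1 and 228 CPM. All 3 genes were higher in the nonclassical range of both libraries.

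Cd300e, an activating receptor, had no UMI in the classical range of either library. A count of 3, the floor used here for each library, would be 9.09 CPM in the classical range of the control and 1.33 CPM in that of the Dnmt1iECKO library, so the nonclassical levels of 184 and 195 CPM were at least 20.3-fold and at least 147-fold higher. On the classical side, Cd14, the lipopolysaccharide coreceptor, stood at 2609.9 CPM in the classical and 671 CPM in the nonclassical range of the control and at 2162 and 629 CPM in the Dnmt1iECKO library. Vcan, a matrix proteoglycan of classical monocytes, stood at 227 and 2.98 CPM in the control and at 196 and 38.2 CPM in the Dnmt1iECKO library. The mixed range lay between the others for these genes, with Nr4a1 at 457 and 480.3 CPM and Cd14 at 1643 and 1591 CPM.

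Chil3 and Mgst1 were the exceptions. This chitinase-like protein is made by classical monocytes and by alveolar macrophages, and in the control it was higher in the nonclassical range (385 CPM classical, 3569 CPM nonclassical) while in the Dnmt1iECKO library it was lower there (888 and 767 CPM). The 5 cells with alveolar macrophage markers held 58.1% of the control and 38.3% of the Dnmt1iECKO monocyte UMIs of Chil3. They also held 56.1% and 28.2% of the UMIs of Ear2, a ribonuclease of both cell types. Mgst1, a glutathione transferase, stood at 185 and 202 CPM in the control and at 333 and 166 CPM in the Dnmt1iECKO library. Without other lineages, with 18 and 21 control cells and 97 and 89 Dnmt1iECKO cells, 16 of 16 nonclassical genes were still higher in the nonclassical range in both libraries, where 35.4% of 4701 genes were, and 10 of 12 classical genes were lower, where 37.6% were.

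**Figure D2:**
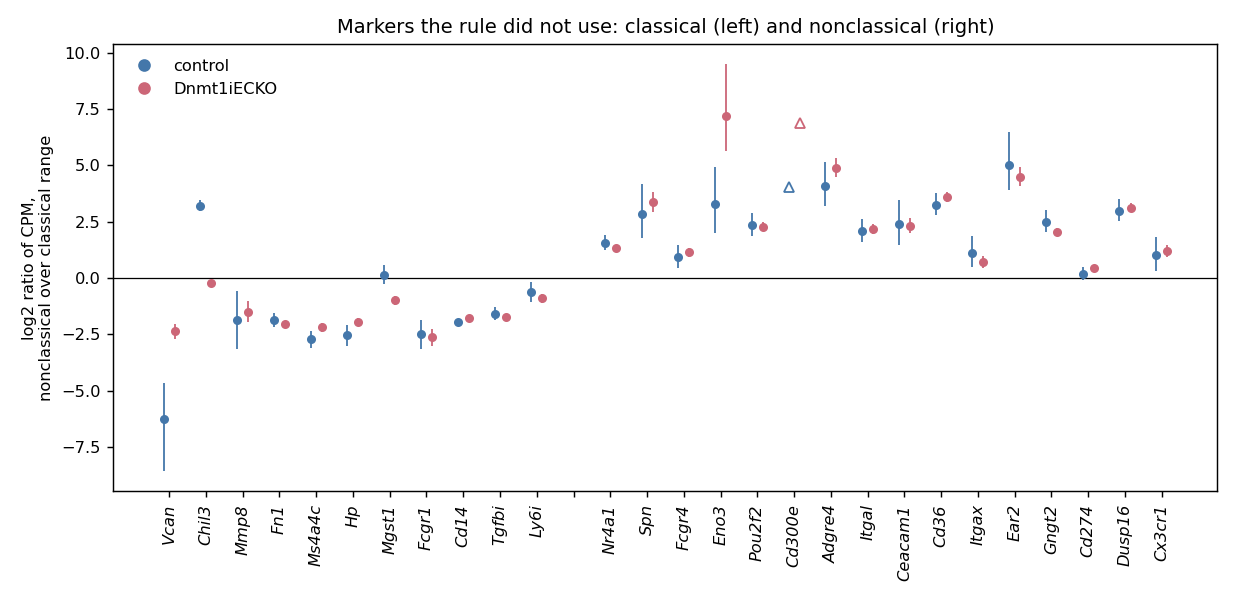
Log2 ratio of CPM, nonclassical over classical range, for 11 of the 12 classical genes (left) and 16 nonclassical genes (right) that the rule did not use, with exact 95% intervals, in the control (blue) and the Dnmt1iECKO library (red). Open triangles mark the lower end of the interval for Cd300e, which had no UMI in the classical range. All 16 nonclassical genes lie above 0 in both libraries, and Chil3 lies above 0 in the control only.

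The genes that differed most between the ranges, outside those of the rule, were largely EC genes when all monocytes were used, among them Rhoj, Piezo2 and Shank3. Without other lineages the highest nonclassical genes included Pparg, a nuclear receptor of lipid metabolism, with 134 UMIs (488 CPM) in the nonclassical and none in the classical range of the control, at least 47.0-fold higher against a floor of 10.4 CPM, and with 715 and 14.0 CPM in the Dnmt1iECKO library. Slc12a2, a sodium, potassium and chloride cotransporter, stood at 364 CPM against none in the control, at least 35.1-fold higher, and at 359 and 2.44 CPM in the Dnmt1iECKO library. Fabp4, a fatty acid binding protein, stood at 153 CPM against none in the control and at 429 and 0.609 CPM in the Dnmt1iECKO library. In ECs these genes stood at 3.58 and 2.15, 60.8 and 54.5, and 120.2 and 79.5 CPM. The nonclassical levels of Pparg and Slc12a2 were thus several times their EC levels, while that of Fabp4 was close to it in the control. Over the whole nonclassical range, the cells with alveolar macrophage markers held 13.2% and 6.94% of the UMIs of Pparg and 0.407% and 1.26% of those of Slc12a2. They held 83.5% and 79.5% of those of Kcnip4, 74.6% and 80.2% of those of Atp6v0d2, 66.1% and 75.4% of those of Ctsk, and 80.1% and 43.0% of those of Gdf15, which the ranking also returned. Its other members were the neutrophil genes S100a8, S100a9 and Retnlg.

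On the classical side without other lineages stood Nrg1, the growth factor neuregulin, with 409 CPM in the classical and 7.29 CPM in the nonclassical range of the control and with 434 and 37.9 CPM in the Dnmt1iECKO library. Gas7, a cytoskeletal adaptor, stood at 177 and 18.2 CPM and at 209 and 11.7 CPM. Clec10a, a galactose-type lectin, stood at 135 and 10.9 CPM and at 57.9 and 5.41 CPM. The same direction in both libraries was a condition of this ranking. Ccl5, Vcan, Tarm1, Gatm, Procr and A330040F15Rik were also in the ranking.

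Among genes whose monocyte UMIs over both libraries numbered 50 or more, 535 of 9846 (5.43%) were at least 1.5-fold higher in the Dnmt1iECKO monocytes with an interval that left out 1, and 860 (8.73%) were at least 1.5-fold lower. The median log2 ratio was −0.04, with 45.1% of genes above 0 and 54.9% below. In cells without Cdh5 or Cldn5 the lower genes numbered 366 of 8412 (4.35%) and the higher ones 527 (6.26%). Without other lineages 273 of 7640 (3.57%) were higher and 381 (4.99%) lower by that measure. These settings also left fewer cells, 74 and 316 in the former and 66 and 270 in the latter.

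MHC class II genes, whose products present extracellular antigen to CD4+ T cells, were higher in the Dnmt1iECKO monocytes for 7 of 8 members, where 45.1% of all genes were, with a list median of 0.48 beside −0.04 for all genes. H2-Ab1, the beta chain of I-A, stood at 1536 and 2466 CPM in the control and Dnmt1iECKO library, a log2 ratio of 0.68 (0.63 to 0.74). H2-Aa, its alpha chain, stood at 1862 and 2779.8 CPM (0.58, 0.53 to 0.63), and Cd74, the invariant chain, at 4595 and 6298 CPM (0.45, 0.42 to 0.49). The peptide exchange genes H2-DMa and H2-DMb1 stood at 231 and 310.5 CPM and at 237 and 339 CPM. Ciita, the class II coactivator, stood at 48.6 and 52.7 CPM, with an interval of its log2 ratio (−0.20 to 0.44) that took in 0. The exception was H2-DMb2 at 25.9 and 10.4 CPM, of whose control UMIs 58.9% came from 1 cell. Leaving out cells with Cdh5 or Cldn5, all 8 were higher, where 52.1% of genes were, and their median was 0.45. In C1q-positive macrophages all 8 were also higher, where 51.1% of genes were, with a median of 0.26.

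In UMIs summed over the cells of a range, the class II difference had another sign in the mixed range than in the others. The list median was 1.40 in the mixed range, −0.18 in the classical range and −0.43 in the nonclassical range, beside −0.01, −0.01 and 0.03 for all genes. In the mixed range 7 of 7 tested members were higher, where 48.8% of genes were, and 6 passed 1.5-fold, where 6.04% did. In the nonclassical range 8 of 8 were lower, where 46.4% of genes were, and in the classical range 5 of 7, where 50.9% were. H2-Aa stood at 1237 and 3403 CPM in the mixed range (log2 ratio 1.46, 1.37 to 1.56), at 3698 and 3317 CPM in the classical range (−0.16, −0.24 to −0.07) and at 1771 and 1363 CPM in the nonclassical range (−0.38, −0.46 to −0.29). H2-Ab1 stood at 924 and 3075 CPM in the mixed, 3219 and 2835 CPM in the classical and 1485 and 1259 CPM in the nonclassical range. H2-Eb1 and Cd74 had the same signs, with mixed-range log2 ratios of 1.40 and 1.51. The share of cells with at least 3 macrophage markers also differed in the mixed range, at 25.0% and 35.8%, and its part was not tested. The control mixed range was the lowest of the 3 control ranges for these genes, and the Dnmt1iECKO mixed range was at or above the Dnmt1iECKO classical range.

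Class II levels varied widely between cells. The summed level of H2-Aa, H2-Ab1, H2-Eb1 and Cd74 per cell ran from 0 to 64088 CPM in the control and from 0 to 64477 CPM in the Dnmt1iECKO library. With a limit of 10000 CPM, chosen after the values were seen, high cells made up 17.5% of the control mixed range (7 of 40, 7.34 to 32.8%) and 42.3% of the Dnmt1iECKO mixed range (52 of 123, 33.4 to 51.5%). In the classical range they made up 38.1% (8 of 21, 18.1 to 61.6%) and 41.5% (49 of 118, 32.5 to 51.0%), and in the nonclassical range 19.6% and 19.3%. Over all ranges 26 control cells (22.2%) and 128 Dnmt1iECKO cells (34.0%) were high, and 15 and 73 cells lay within 2-fold of the limit. The median level of the mixed range was 1631 CPM for control and 4944 CPM for Dnmt1iECKO cells. That of the nonclassical range was 1189.9 and 1354 CPM, and that of the classical range 3907 and 6415 CPM. The median cell was thus higher in the Dnmt1iECKO library in each range, unlike the summed UMIs of the classical and nonclassical range. The upper quartile was lower in that library in the classical (38135 and 29035 CPM) and nonclassical range (6974 and 6534 CPM). So was the lower quartile of the classical range (267 and 214 CPM), while the other quartiles were higher. No interval was made for these medians. Among mixed cells without Cdh5 or Cldn5 the high share of the mixed range was 20.7% and 46.0%. In the Dnmt1iECKO library the high mixed cells carried more Fcgr1 (188 against 74.7 CPM) and Cxcl9 (1457 against 232 CPM) and less Vcan (26.6 against 351 CPM) than the low mixed cells. Itgax (CD11c), one of the nonclassical genes outside the rule, stood at 99.2 CPM in the high and 29.0 CPM in the low mixed cells of that library. In the control it stood at 211 and 120.4 CPM. Zbtb46, a transcription factor of conventional dendritic cells, stood at 12.9 and 22.5 CPM (18 and 31 UMIs) and at 22.6 and 14.5 CPM (3 and 10 UMIs). Fscn1, of mature dendritic cells, stood at 4.31 and 8.70 CPM (6 and 12 UMIs) and at 15.1 and 8.70 CPM (2 and 6 UMIs). These counts are too low to rank the levels. Xcr1, Clec9a and Ccr7 had at most 2 UMIs in the high or the low mixed cells of either library. Cd209a, a marker of monocyte-derived dendritic cells, had no UMI in the mixed range of either library.

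**Figure D3:**
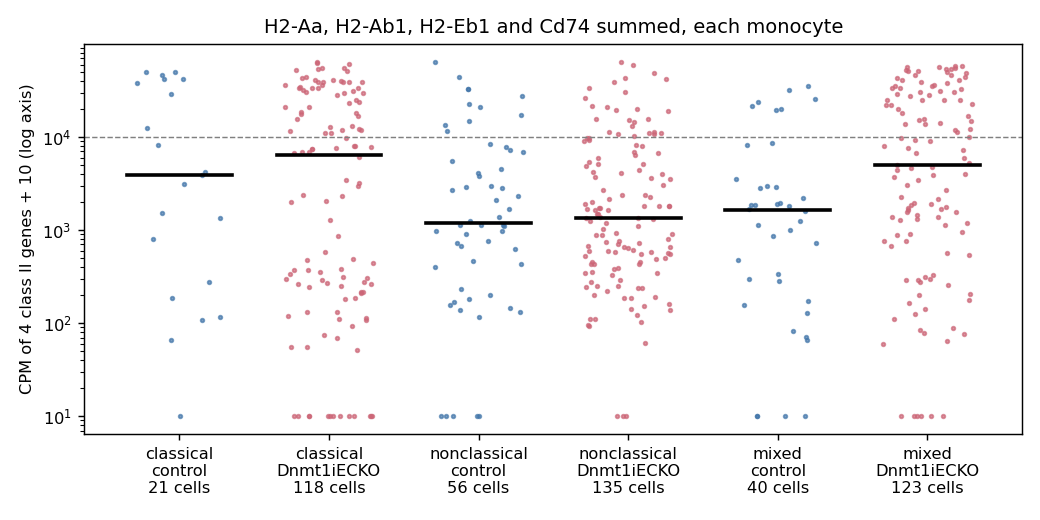
Summed CPM of H2-Aa, H2-Ab1, H2-Eb1 and Cd74 plus 10 in each monocyte, on a log axis, by range and library. Each point is 1 cell, black lines are medians and the dashed line is the limit of 10000 CPM. The mixed range has its median at 1631 CPM in the control and at 4944 CPM in the Dnmt1iECKO library, before the 10 is added.

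MHC class I genes, which present intracellular peptides to CD8+ T cells, were higher in the Dnmt1iECKO monocytes for 18 of 18 members, where 45.1% of all genes were, but by little, with a median of 0.23 and none at 1.5-fold. B2m, the class I light chain, stood at 3772 and 4429.6 CPM (0.23, 0.20 to 0.27) and had ratios of 0.30, 0.25 and 0.28 in the classical, nonclassical and mixed range. Psmb10, an immunoproteasome subunit, stood at 174 and 258 CPM (0.57, 0.41 to 0.73), and Tap1, a subunit of the peptide transporter, at 93.0 and 122 CPM. By range 10 of 18 members were higher in the classical range, where 49.1% of genes were, with a median of 0.08 and Psmb10 at −0.11. In the nonclassical range 17 of 18 were higher, where 53.6% of genes were, with a median of 0.32, and in the mixed range 15 of 18, where 48.8% were, with a median of 0.27. In C1q-positive macrophages the median was 0.23. The ratio of B2m was −0.13 among the 28 and 127 monocytes that the rule found after thinning, where Gbp2 and Zbp1, described next, also had ratios below 0 (−0.52 and −0.12).

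Genes induced by interferon gamma were higher for 27 of 29 tested members, where 45.1% of all genes were, with a median of 0.33. Of these members 5 passed 1.5-fold, where 5.43% of all genes did. Gbp2, a guanylate binding protein, stood at 243 and 350.3 CPM (0.53, 0.39 to 0.67). Batf2, a factor of activated macrophages, stood at 11.6 and 24.1 CPM (1.06, 0.45 to 1.72). Without Cdh5 or Cldn5 the median was 0.37. By range the median was −0.15 in the classical, 0.38 in the nonclassical and 0.53 in the mixed range, so the classical range did not share the direction. In C1q-positive macrophages the median was 0.13. The receptor genes Ifngr1 and Ifngr2 stood at 359 and 409 CPM and at 185 and 195 CPM.

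Among the interferon gamma targets, the CXCR3 ligands, which attract activated T cells, were uneven. Cxcl10 stood at 407 and 569 CPM (0.48, 0.38 to 0.59), with log2 ratios of 1.20 in the mixed, −0.10 in the nonclassical and −0.77 in the classical range, and 1 control cell held 34.2% of its control UMIs. Cxcl9 stood at 638 and 672 CPM (0.07, −0.01 to 0.16) over all monocytes. Its log2 ratio was 0.90 without Cdh5 or Cldn5. Without the top cell of each library it was 0.32 (0.22 to 0.41). In the nonclassical range alone Cxcl9 stood at 538 and 109 CPM, but it was detected in only 8.93% of control and 9.63% of Dnmt1iECKO cells there. These levels thus rest on few cells. Iigp1, an interferon-induced GTPase, stood at 128 and 242 CPM (0.92, 0.73 to 1.10), but ECs carried it at 1042 and 1015 CPM, and 33.2% of its control UMIs came from 1 cell.

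Genes induced by type I interferon, which signals viral or other cytosolic nucleic acid, were higher for 23 of 33 tested members, where 45.1% of all genes were, with a median of 0.22. Ifi27l2a, a small mitochondrial protein, stood at 456 and 695 CPM (0.61, 0.51 to 0.71), and its nonclassical levels were 155 and 379 CPM. Zbp1, a sensor of Z-form nucleic acid, stood at 119 and 184 CPM (0.62, 0.43 to 0.82), and Oas1a, which makes the activator of RNase L, at 27.8 and 47.9 CPM (0.79, 0.39 to 1.21). Other members were near 0: Usp18, a brake of the pathway, stood at 21.3 and 20.7 CPM and Trim30a at 195 and 195 CPM. The median was 0.41 in the nonclassical, 0.00 in the classical and −0.03 in the mixed range, so the mixed range, highest for class II and interferon gamma genes, was not so here. In C1q-positive macrophages the median was −0.01.

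NF-kB target genes did not differ as a group, with 14 of 23 higher, where 45.1% of all genes were, and a median of 0.02. Nfkbia, the inhibitor that NF-kB induces, stood at 2150.4 and 2279 CPM (0.08, 0.04 to 0.13), and Il1b, which encodes interleukin 1 beta, at 5086 and 6046 CPM (0.25, 0.22 to 0.28). Without Cdh5 or Cldn5, 19 of 23 were lower, where 47.9% of genes were, with a median of −0.14; the log2 ratio of Nfkbia was then −0.18 and that of Tnf −0.69. Immediate early genes, which respond to tissue dissociation, were higher for 7 of 14, where 45.1% of all genes were, with a median of −0.01. Without other lineages 2 of 14 were higher, where 50.8% of genes were, with a median of −0.22. By range 8 of 14 were higher in the classical (median 0.09), 10 of 14 in the nonclassical (0.12) and 2 of 14 in the mixed range (−0.35). Of all genes 49.1%, 53.6% and 48.8% were higher in these ranges. Hspa1a and Hspa1b, heat shock chaperones of that list, stood at 138 and 67.5 CPM and at 131 and 58.6 CPM, so the control monocytes held more of both.

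**Figure D4:**
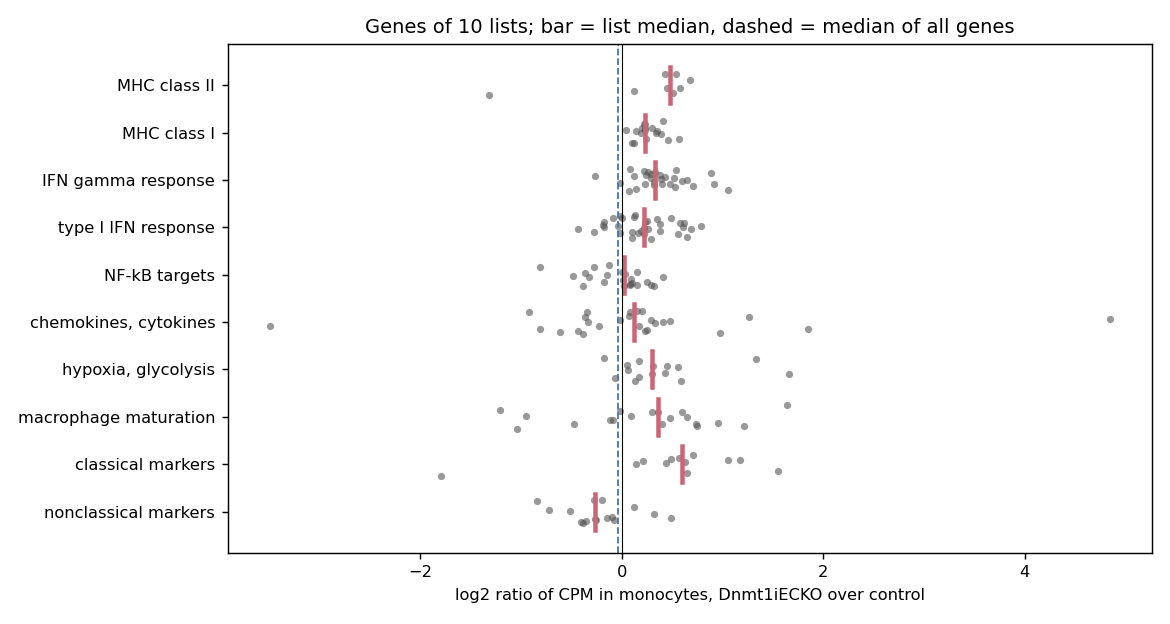
Log2 ratio of CPM in monocytes, Dnmt1iECKO over control, for each tested gene (points) of 10 lists. Red bars are list medians and the dashed line is the median of all genes, −0.04. The medians of the MHC class II (0.48) and class I (0.23) lists lie to the right of the dashed line, the latter with every gene above 0.

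Chemokine and cytokine genes had a median of 0.12 with 15 of 26 higher, where 45.1% of all genes were, and 4 members passed 1.5-fold in each direction, where 5.43% of genes were higher and 8.73% lower by that measure. The median had the other sign in fewer cells, at −0.13 without Cdh5 or Cldn5 (9 of 25 higher, where 52.1% of genes were) and at −0.20 without other lineages (10 of 24 higher, where 50.8% were). Ccl2, the ligand of CCR2 that recruits monocytes, stood at 40.3 CPM (87 UMIs) in the control and 145 CPM (1060 UMIs) in the Dnmt1iECKO library, a log2 ratio of 1.85 (1.53 to 2.18). Its log2 ratio was 0.86 in the classical, 2.52 in the nonclassical and 1.77 in the mixed range and 1.69 without Cdh5 or Cldn5, while ECs went the other way with 56.2 and 17.1 CPM. Cxcl16, the ligand of CXCR6 on resident T cells, stood at 112 and 222 CPM (0.98, 0.78 to 1.18), with 117 and 268 CPM in the mixed, 255 and 304 CPM in the classical and 62.5 and 72.0 CPM in the nonclassical range. Ccl3, an inflammatory chemokine, was lower, with 197 and 112 CPM (−0.81, −0.98 to −0.64). Cxcl3, a neutrophil attractant, stood at 101 and 9.03 CPM, but 43.4% of its control UMIs came from 1 cell and 51.6% from the 5 cells with alveolar macrophage markers. Without those 5 cells of each library it stood at 54.8 and 9.19 CPM. Ccl7 had 2 control UMIs and 195 Dnmt1iECKO UMIs, of which 50.8% were in 1 cell.

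Genes of macrophage maturation had a median of 0.36 with 12 of 19 higher, where 45.1% of all genes were. The median was 0.17 without Cdh5 or Cldn5 and −0.32 without other lineages, so its direction changed with the cells kept. Apoe, a lipid carrier of tissue macrophages, stood at 707 and 1070.2 CPM (0.60, 0.52 to 0.68). Mrc1, the mannose receptor of tissue macrophages, was lower at 174 and 74.8 CPM (−1.21, −1.41 to −1.02), though its ratio was 2.02 in the classical range. Gpnmb and Spp1 were held by few cells, with 59.6% and 74.2% of their control UMIs in 1 cell each.

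Hypoxia and glycolysis genes were higher for 13 of 15, where 45.1% of all genes were, with a median of 0.30, and for 10 of 14, where 52.1% were, with a median of 0.16 without Cdh5 or Cldn5. By range 4 of 14 were higher in the classical (median −0.17), 12 of 14 in the nonclassical (0.46) and 11 of 14 in the mixed range (0.15). Of all genes 49.1%, 53.6% and 48.8% were higher in these ranges. The classical range thus had the other sign. Pgk1, a glycolytic kinase, stood at 128 and 188 CPM and Tpi1, triosephosphate isomerase, at 113 and 170.2 CPM. Bnip3, a hypoxia-induced mitophagy receptor, stood at 9.26 and 29.3 CPM, with 28.0% of its Dnmt1iECKO UMIs in 1 cell. Classical genes outside the rule were higher for 11 of 12 with a median of 0.60, and nonclassical genes for 3 of 16 with a median of −0.26, where 45.1% of all genes were higher, beside the larger classical share given above. In cells without Cdh5 or Cldn5 these counts were 9 of 12 (0.37) and 3 of 16 (−0.26), where 52.1% of all genes were higher. Without other lineages they were 8 of 12 (0.40) and 7 of 16 (−0.05), where 50.8% were. Mmp8, a collagenase, stood at 17.6 and 51.6 CPM, and Itgal, the alpha chain of the integrin LFA-1, at 344 and 261 CPM. Cx3cr1, the fractalkine receptor, was among the 3 of 16 nonclassical genes that were higher, with 96.3 and 135 CPM (0.49, 0.28 to 0.72). Within the nonclassical range 11 of 16 nonclassical genes were higher, where 53.6% of all genes were. Cytokine receptors, migration receptors, transcription factors and phagocytosis genes had medians of 0.05, 0.01, −0.03 and −0.05, and checkpoint and suppression genes one of 0.24, which was 0.04 without Cdh5 or Cldn5. Cell cycle genes had a median of 0.08 with 7 of 13 higher, where 45.1% of all genes were, and Mki67 stood at 43.5 and 54.2 CPM. Without Cdh5 or Cldn5 their median was −0.30 with 4 of 12 higher, where 52.1% of all genes were.

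Of 7878 genes with at least 100 UMIs and detection in at least 10% of monocytes of 1 library, 3279 had the same sign in the classical and nonclassical range, and the 10 highest and 10 lowest of these were examined. The highest was Gdpd3, a lysophospholipase D (chr7:126766334-126775649 on GRCm38, plus strand), with 18 UMIs (8.33 CPM) in the control and 1008 UMIs (138 CPM) in the Dnmt1iECKO library, a log2 ratio of 4.05 (3.38 to 4.81). It was found in 13.7% and 61.5% of monocytes, and after thinning each cell to 2000 UMIs in 1.71% and 20.4%, beside 0.647% and 22.1% of T cells. The difference was not particular to monocytes: macrophages stood at 9.06 and 152 CPM, neutrophils at 6.82 and 478, dendritic cells at 5.02 and 71.5, T cells at 0.737 and 146, and ECs at 6.21 and 153 CPM. Rpl29, a protein of the large ribosomal subunit (chr9:106429454-106431568, plus strand), went the other way, with 767 and 154 CPM in monocytes (−2.32, −2.43 to −2.21) and lower levels in each of the other populations too, from 637 and 164 CPM in ECs to 1326 and 264 CPM in T cells. Both genes differed in cells that the deletion targets and in cells that it does not. Rpl29 has many processed copies in the genome, so reads that match a copy are uncertain.

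The other genes of that ranking were mostly carried by few cells or by other cell types. Il18bp, which neutralizes interleukin 18 and is induced by interferon gamma, stood at 7.41 and 27.5 CPM (1.89, 1.16 to 2.73), with 5.47% of its Dnmt1iECKO UMIs in the top cell and a log2 ratio of 1.12 without other lineages. Tnfaip6, a hyaluronan-binding protein of inflamed tissue, stood at 8.33 and 35.3 CPM, with a ratio of 1.02 without other lineages. Clu, the chaperone clusterin, stood at 17.1 and 120.1 CPM, but 52.2% of its Dnmt1iECKO UMIs came from 1 cell and its ratio without other lineages was −1.28. C4b, Fstl1 and Plat had ratios of 0.72, −0.43 and 0.30 without other lineages. Gm42047, Gm15726 and 1200007C13Rik are noncoding transcripts with 6, 8 and 8 UMIs in the control.

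Among the 10 lowest, Hilpda, a lipid droplet protein induced by hypoxia, stood at 247 and 71.4 CPM (−1.79, −1.97 to −1.61), and 44.8% of its control UMIs came from the cells with alveolar macrophage markers, without which it stood at 152 and 64.6 CPM. Car4, a carbonic anhydrase of lung capillaries, stood at 163 and 37.5 CPM in monocytes and at 816 and 581 CPM in ECs, and Tmem100, another EC gene, at 271 and 84.7 CPM beside 1476 and 1149 CPM in ECs. Lmo7 stood at 102 and 20.1 CPM with 46.2% of control UMIs in 1 cell, and its log2 ratio was 0.69 without Cdh5 or Cldn5. Hist1h1b, a linker histone of dividing cells, had 89.1% of its control UMIs in 1 cell, and Trmt61b had 57.7%. Tanc2, Cyb561a3 and the antisense transcript Gm16685 had log2 ratios of −1.94, −1.77 and −2.28. Single cells held 40.3% of the control UMIs of Gm16685 and 22.4% of those of Tanc2, and the cells with alveolar macrophage markers 63.6% of those of Cyb561a3. The part of EC RNA and of these cells in the differences was not tested.

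Compared with C1q-positive macrophages of the same library, monocytes held less class II RNA. All 8 class II genes were tested, 7 were lower in monocytes in both libraries, where 29.5% of 10716 genes were, and the medians were −1.35 in the control and −1.25 in the Dnmt1iECKO library. H2-Aa stood at 1862 CPM in control monocytes and 6267 CPM in control macrophages, and at 2779.8 and 7716 CPM in the Dnmt1iECKO library. Maturation genes were lower in monocytes for 18 of 20 in both libraries, where 29.5% of all genes were. Apoe stood at 707 and 4415 CPM in the control and at 1070.2 and 4932 CPM in the Dnmt1iECKO library. Type I interferon genes were higher in monocytes for 24 of 35, where 48.0% of all genes were, with medians of 0.40 and 0.60. Itga4, a chain of the integrin VLA-4 that binds VCAM1, stood at 612 and 181 CPM in control monocytes and macrophages and at 616 and 173 CPM in the Dnmt1iECKO library.

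Without other lineages, the genes that set monocytes furthest above macrophages included Adgre4, an adhesion receptor of nonclassical monocytes, with 337 and 2.78 CPM in the control and 318 and 9.73 CPM in the Dnmt1iECKO library. Pglyrp1, a peptidoglycan recognition protein, stood at 159 and 3.70 CPM and at 188 and 9.73 CPM, and S1pr5, a receptor that lets nonclassical monocytes leave the marrow, at 24.1 CPM against none (at least 26.1-fold higher) and at 25.2 and 0.985 CPM. On the macrophage side stood Ccl8, with 2.78 CPM in monocytes and 1253 CPM in macrophages of the control and 1.60 and 406 CPM in the Dnmt1iECKO library. Cxcl13, a B cell attractant, had no UMI in 66 control monocytes and 164 CPM in macrophages, at least 58.8-fold higher there, and 1.15 and 135 CPM in the Dnmt1iECKO library. Ranked over all cells instead, the same comparison returned epithelial and neutrophil genes such as Sftpc and Camp. This ranking kept only genes with the same direction in both libraries, so that agreement was set by the selection.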

How the data were processed

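The authors sorted live CD31+CD45- cells and deposited 1 filtered matrix of raw UMI counts per library, made with Cell Ranger and mm10 and holding 32285 gene identifiers. These counts were used without change. Counts were summed over the monocytes of a library and divided by their total to give CPM, UMIs per 1000000. With 1 library per group no test was made. Shares have exact Clopper-Pearson, levels exact Poisson and ratios exact conditional 95% intervals, for genes with a total of 50 or more UMIs. Median depth was 14622 UMIs per control and 16514 per Dnmt1iECKO monocyte. C1q-positive macrophages had at least 3 C1q UMIs. Doublets were called with Scrublet in scanpy 1.11.5 at 0.4% per 1000 cells and were kept, and removed as an alternative. Other tools were Python 3.11.15, numpy 2.4.6, pandas 2.3.3, scipy 1.17.1 and matplotlib 3.10.9.

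The members and lists were chosen with earlier results of these data known. Named genes were the list members and, outside the rule genes, the 10 highest and 10 lowest ratios among genes with at least 100 UMIs. For the library comparison these also had to be detected in 10% of the monocytes of a library and have the same sign in both ranges, and for nonclassical over classical cells and for monocytes over macrophages the same sign in both libraries. The 10000 CPM limit, the cells without other lineages and those with alveolar macrophage markers were chosen after the values were seen. Mast cell, progenitor, erythroid and melanoma markers reached 3 genes in 0, 0, 0 and 0 control and 0, 2, 1 and 0 Dnmt1iECKO monocytes. The procedure was tested on simulated counts. Some genes are not reported here.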

Additional observations from a re-analysis of the deposited data

Results flagged for a closer look

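The MHC class II list had a median log2 ratio, Dnmt1iECKO over control, of 1.40 in the mixed range, −0.18 in the classical range and −0.43 in the nonclassical range. In these summed UMIs the mixed range had the opposite sign to the others. The class II level of the median cell was higher in the Dnmt1iECKO library in each range, but the upper quartile was lower in the classical and nonclassical range. The cell cycle list had a median of 0.49 in the nonclassical range, with 5 of 6 genes higher where 53.6% of all genes were, and of −1.00 in the classical range, with 0 of 8 higher where 49.1% were. Over all ranges only 3 of 117 control monocytes (2.56%) and 18 of 377 Dnmt1iECKO monocytes (4.77%) held UMIs of both Mki67 and Top2a. Very few cells may thus carry the cell cycle values, which was not tested. The differences between ranges were not tested, since each library is a single sample, and the classical range held 21 control cells.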

How the results depend on the processing

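Of 166 summary values under the alternatives, 143 stayed, 22 moved and 1 reversed. A share or list median stayed when it lay within the spread of the main setting, and a count of genes when it lay within 1.5-fold. For list medians the spread ran from the median of the genes' lower bounds to that of their upper bounds. The log2 ratio of the classical share, 0.80 (0.12 to 1.55), ran from 0.40 (−0.34 to 1.21) without other lineages to 1.21 at 3 Ly6c2 UMIs, and was 0.56 (−0.17 to 1.36) without Cdh5 or Cldn5. These values lay within its counting interval, but the intervals of both settings on other cells' RNA took in 0, as did those with 4 of 6 markers (−0.05 to 1.76) and after thinning (−0.16 to 2.34). The interferon gamma median (0.33) ran from 0.13 to 0.45 and the type I interferon median (0.22) from 0.08 to 0.33, each within its spread. Without Cdh5 or Cldn5, after thinning to 2000 UMIs (28 and 127 cells) and without other lineages, the log2 ratio of the share of filtered cells (1.67) was 2.08, 2.14 and 2.02, and that of Ptprc-positive cells (0.00) was 0.40, 0.39 and 0.34. The settings without Cdh5 or Cldn5 and without other lineages took cells from the monocytes only and not from the denominators. The class II median (0.48) was 1.37 with 4 of 6 markers, 0.68 with Ly6c2 not counted, 0.37 with no C1q UMI, 1.22 after thinning, 0.72 without the deepest cells and −0.28 with ranges weighted by the control shares, a setting that leaves out the mixed range. The NF-kB median (0.02) was −0.14 without Cdh5 or Cldn5, −0.08 without other lineages and −0.19 with weighted ranges. The count of higher genes (535) was 273 without other lineages, 346 without the deepest cells and 234 among genes with at least 200 UMIs. The count of lower genes (860) was 366 without Cdh5 or Cldn5, 374 after thinning, 381 without other lineages, 357 among genes with at least 200 UMIs and 514 with weighted ranges. Of 1396 single-gene values 1008 stayed within their interval and 350 moved. The other 38 reversed. With weighted ranges these were Cxcl10 (−0.56), H2-Aa (−0.28), H2-Ab1 (−0.21), H2-Eb1 (−0.35), H2-DMa (−0.26), H2-DMb1 (−0.18), Cd74 (−0.29) and Nfkbia (0.00). After thinning they were Gbp2 (−0.52), H2-DMb2 (1.35), H2-K1 (−0.38), B2m (−0.13), Zbp1 (−0.12), Chil3 (0.75), Cxcl3 (1.09), Dnmt1 (0.61), Fcgr4 (−0.15), Lmo7 (0.54), Hist1h1b (1.87), Car4 (1.63), Tanc2 (0.13), Hilpda (0.81), Cyb561a3 (0.54) and Tmem100 (0.04). With 4 of 6 markers they were H2-DMb2 (2.56), Fstl1 (−0.03) and Hist1h1b (1.86), and with Ly6c2 not counted Hist1h1b (0.76). Without Cdh5 or Cldn5 they were H2-DMb2 (0.08), Nfkbia (−0.18), Lmo7 (0.69) and Trmt61b (0.07), without other lineages Nfkbia (−0.12), Clu (−1.28) and Fstl1 (−0.43), and without the deepest cells H2-DMb2 (0.00), Clu (−0.32) and Plat (−0.39). Apart from the mixed range left out by weighting and the fewer cells or genes of the other settings, the cause was not tested. The settings on other lineages, deepest cells, 3 Ly6c2 UMIs and alveolar macrophage markers were chosen after seeing the data. No paired analysis was possible because each group was 1 library and no test was made.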
